A study of Mus musculus with 7 samples.

Results

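A set of 10 genes for ETS transcription factors was followed in mouse cerebellum after loss of the repressor gene Cic. They were taken by symbol, as the PEA3 group (Etv1, Etv4 and Etv5) beside other ETS activators (Ets1, Ets2, Elk1) and ETS repressors (Etv3, Etv6, Erf and Elk3). All 10 of 10 symbols were found among the 24421 genes of each count file, and all 10 passed the filter on low counts, which kept 16905 genes. The series holds whole-cerebellum RNA-seq of C57BL/6 mice in 2 groups. The 4 knockout libraries (titled CicKO) carry En1-Cre with both Cic alleles floxed, and the 3 controls (titled Wildtype) are labelled Cicflox/+, that is, with a floxed and an intact Cic allele. The genotype field of the controls names no Cre, so an effect of Cre itself and one of Cic loss cannot be told apart. En1 is active in the embryonic midbrain and anterior hindbrain, so cells of other origin in the cerebellum, such as blood vessel cells and microglia, are not expected to lose Cic. No age, sex or litter is given.

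ETS factors share a DNA-binding domain that recognises a GGAA core, and many are switched on or off by phosphorylation through ERK, the terminal kinase of receptor tyrosine kinase signalling. CIC binds octamers of the type TGAATGAA or TGAATGGA and represses nearby genes until ERK signalling relieves it, and the PEA3 group genes are its best known targets. In the developing midbrain and cerebellum Etv4 and Etv5 are textbook read-outs of FGF signalling, and Etv1 is a gene of maturing granule neurons.

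The promoters of the members differ in the letters related to the CIC octamer. For 3 members a window is shown, picked with the responses known, as Etv5 rose strongly, Etv1 little and Etv6 not detectably. A relation of these letters to the response was not tested. RefSeq starts on GRCm38.p6 were matched by symbol for 8 of the 10 members, with 10 windows of 250 bases before a start. There was no entry for Etv4 and Ets1. Each window below is written 5′ to 3′ on the gene's strand, with TGAATG or TCAATG, on either strand, in capitals. The outer Etv5 window and the inner Etv1 window are not shown and hold neither TGAATG nor TCAATG. None of the 3 shown overlaps an annotated exon.
Etv5, inner start, chr16:22438369-22438618, minus strand: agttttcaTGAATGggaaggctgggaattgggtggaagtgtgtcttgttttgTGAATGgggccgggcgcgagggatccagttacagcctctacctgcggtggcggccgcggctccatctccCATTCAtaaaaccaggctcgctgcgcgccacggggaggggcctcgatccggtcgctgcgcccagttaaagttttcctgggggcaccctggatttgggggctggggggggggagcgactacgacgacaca
Etv1, outer start, chr12:38779832-38780081, plus strand: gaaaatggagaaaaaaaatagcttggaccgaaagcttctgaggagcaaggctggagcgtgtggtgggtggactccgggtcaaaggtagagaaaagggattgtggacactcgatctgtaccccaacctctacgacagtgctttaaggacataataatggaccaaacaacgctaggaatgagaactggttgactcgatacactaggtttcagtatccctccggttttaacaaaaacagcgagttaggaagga
Etv6, chr6:134035450-134035699, plus strand: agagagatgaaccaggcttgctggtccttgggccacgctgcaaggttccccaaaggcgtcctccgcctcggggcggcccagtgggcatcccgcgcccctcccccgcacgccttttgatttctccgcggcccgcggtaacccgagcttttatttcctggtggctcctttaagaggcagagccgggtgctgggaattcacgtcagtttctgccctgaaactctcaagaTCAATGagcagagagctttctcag

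The exact octamers TGAATGAA, TGAATGGA, TCAATGAA and TCAATGGA, searched on both strands, were found in 0 of the 10 member windows, and in 3.19% of all 32851 RefSeq windows of this length. The ETS motif CCGGAAGT was also found in 0 of the 10, and in 2.88% of all windows. The shorter core TGAATG, chosen after these sequences had been seen, occurred 3 times in the inner Etv5 window, at 242 to 237, 198 to 193 and 129 to 124 bases before the start, and in no other member window. At least 1 TGAATG was present in 10.9% of all windows and 3 or more in 0.131%. The other core, TCAATG, occurred once, in Etv6, and in 7.25% of all windows. These are matches of letters in a short window, not measured binding sites.

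Cic RNA was lower in the knockouts. Counts were given per gene, so reads of the floxed part alone could not be seen. Cic, counted over its whole gene, stood at 144 to 147 CPM (counts scaled to a common library total, with TMM factors) in the knockouts and at 216, 257 and 223 CPM in the controls, so the log2 fold change was -0.66 (SE 0.0622 and adjusted p = 0.00256). Unless another tool is named, adjusted p-values come from edgeR's quasi-likelihood test with Benjamini-Hochberg adjustment over the 16905 tested genes, and a gene was called below 0.05. Library totals were 102653765 to 121285349 counts, and the members had from 721 counts (Elk3) to 45391 counts (Etv1) in a library. Libraries numbered 3 stood apart in both groups through choroid plexus transcripts, with a summed marker level of 12200 CPM in knockout 3 and 8400 CPM in control 3 against 211 to 369 CPM in the others. Granule cell and Purkinje cell markers were present throughout (Gabra6 at 579 to 843 CPM, Pcp2 at 104 to 171 CPM).

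Of the 10 ETS genes, Etv4 and Etv5 were called higher in the knockout and 0 were called lower. Over all tested genes 2.08% were called, 1.25% higher and 0.828% lower. Both members exceeded a 2-fold rise, as did 0.42% of all tested genes among those called. The unadjusted p was below 0.05 for 5 members, all of them higher, and for 0 lower, beside 8.06% of all tested genes higher and 8.16% lower. DESeq2 and limma-voom likewise called 0 members lower. Etv1, Etv4, Etv5 and Elk3 lay above every control in every knockout library, and 0 members lay below every control. Over all tested genes the groups did not overlap for 15.4%, with the knockouts above for 7.06% and below for 8.36%. The members' median log2 fold change was 0.19, beside 0.00 over all tested genes. In whole tissue, a change in the number of expressing cells and a change of RNA per cell cannot be told apart.

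**Figure D1:**
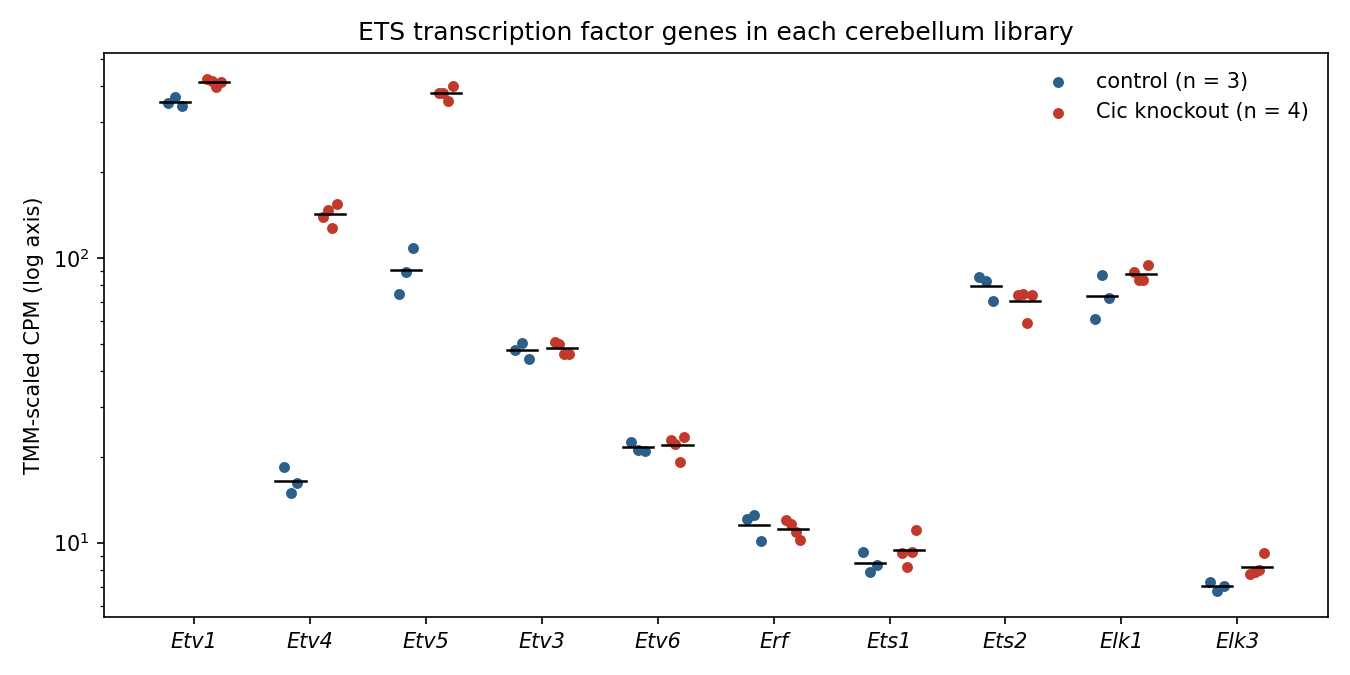
TMM-scaled CPM (log axis) of the 10 ETS genes, with 1 point per library, blue for controls (n = 3), red for Cic knockouts (n = 4) and a bar at each mean. The groups are far apart for Etv4 (14.9 to 18.4 against 127 to 155 CPM) and Etv5 (74.9 to 108 against 356 to 401 CPM), and lie close together or overlap for the other 8 genes.

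Etv4, which encodes the PEA3 protein after which the group is named, had the largest change of the 10. It lies on chromosome 11 (chr11:101769742-101785371 in GENCODE M21, minus strand). Its level was 18.4, 14.9 and 16.2 CPM in controls 1 to 3 and 139, 147, 127 and 155 CPM in knockouts 1 to 4. The lowest knockout was thus well above the highest control, and the spread within each group was small, with coefficients of variation of 8.39% and 10.8%. The log2 fold change was 3.11 (95% interval 2.88 to 3.33, SE 0.0976, adjusted p = 8.01e-06), an 8.61-fold difference. No alternative of the analysis ended this call, and the log2 fold change ranged from 2.99 to 3.27 over all 19 settings.

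Etv5, also known as ERM, is a glial and progenitor-associated member of the group on chromosome 16 (chr16:22381309-22439719, minus strand). It stood at 74.9, 89.2 and 108 CPM in controls 1 to 3 and at 380, 379, 356 and 401 CPM in knockouts 1 to 4. The knockouts were all above the controls and were more alike, with a coefficient of variation of 4.84% against 18.5% in the controls. The log2 fold change was 2.06 (95% interval 1.78 to 2.34, SE 0.120, adjusted p = 0.000458). It was called in all 19 settings, between 1.94 and 2.24, and was 2.24 without both libraries numbered 3. The summed level of 12 Bergmann glia and astrocyte markers was 4480 to 4890 CPM in knockouts and 5610 to 5750 CPM in controls. Of those markers, Gdf10, Aqp4 and Ndrg2 were called lower and 0 higher, and 7 were lower and 0 higher at an unadjusted p below 0.05. Over all tested genes 0.828% were called lower, and 8.16% were lower at an unadjusted p below 0.05. Whether the number of these cells has a part in the Etv5 level was not tested.

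Etv1, also known as ER81, moved little beside the other PEA3 group genes. It lies on chromosome 12 (chr12:38779380-38870484, plus strand). Its level was 349, 366 and 342 CPM in the controls and 426, 418, 399 and 415 CPM in knockouts 1 to 4. The groups did not overlap, and both were tight, with coefficients of variation of 3.52% and 2.76%. The log2 fold change of 0.24 (95% interval 0.12 to 0.35, SE 0.0512) missed the threshold (adjusted p = 0.0618), and the interval excludes a change as large as that of Etv4 or Etv5. It passed in 6 of 19 settings, with adjusted p from 2.45e-05 in DESeq2 to 0.427 when the fraction of reads in no feature entered as a covariate, and the value stayed between 0.20 and 0.26. Leaving out knockout 3 (adjusted p = 0.0262) or control 2 (0.0452) was enough for a call, while the fit with the replicate number as a block gave an adjusted p of 0.11. The summed level of 12 granule cell markers, a list that includes Etv1 itself, overlapped between groups (6670 to 7810 CPM in knockouts, 6770 to 7610 CPM in controls).

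The balance within the PEA3 group therefore shifted, and the shift was measured by the ratio of 2 genes within each library, which does not depend on scaling. The log2 ratio of Etv4 to Etv5 was -2.02, -2.58 and -2.74 in controls 1 to 3 and -1.45, -1.36, -1.49 and -1.37 in knockouts 1 to 4. Etv4 thus gained on Etv5 by 1.03 on the log2 scale. The log2 ratio of Etv4 to Etv1 went from -4.42 ± 0.189 (SD, n = 3) in controls to -1.55 ± 0.105 (SD, n = 4) in knockouts, a difference of 2.87. That of Etv5 to Etv1 went from -1.97 ± 0.288 to -0.13 ± 0.0555, a difference of 1.84. In all 3 pairs the groups did not overlap, and the two-sided exact permutation p was 0.0286, the smallest the 35 splits allow, and also 0.0286 after adjustment over the 3 pairs. For all 3 pairs the separation follows from the levels of the genes given above, so these p-values are no support beyond those levels. The members were also chosen with earlier results known. That test shuffles all 7 libraries freely. Between same-numbered libraries the log2 ratio of Etv4 to Etv5 differed by 0.57, 1.22 and 1.25, and all 3 ratios were higher in the knockout in 3 of 3 number pairs. A two-sided exact sign-flip test over those pairs gives p = 0.25, the smallest that 3 pairs allow.

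**Figure D2:**
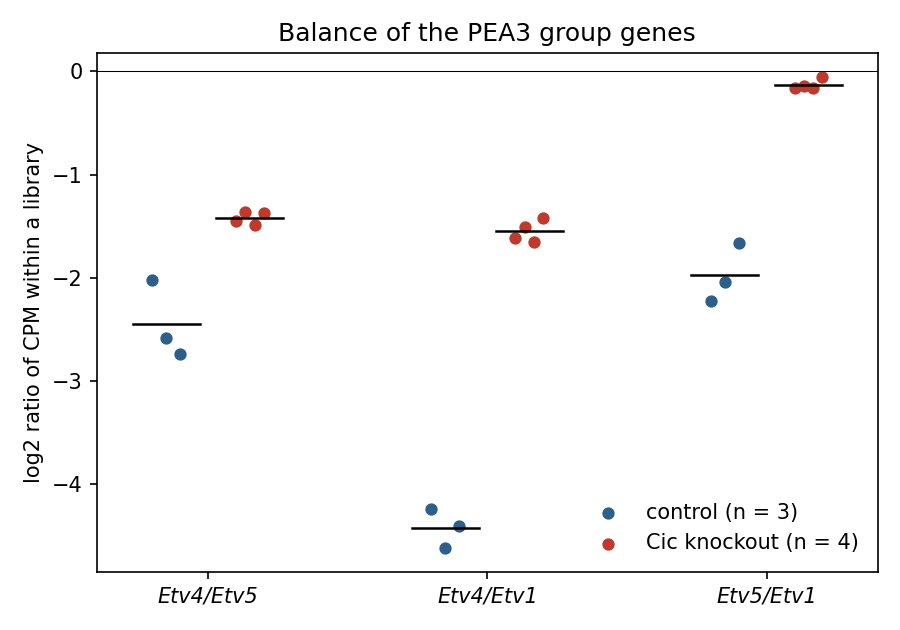
Log2 ratio of CPM between PEA3 group genes within each library (vertical axis), with 1 point per library and a bar at each group mean, controls in blue (n = 3) and knockouts in red (n = 4). Each ratio is higher in every knockout than in every control, and Etv5 came close to the CPM of Etv1 (log2 ratio -0.16 to -0.05 in the knockouts).

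Levels were compared between genes per kilobase of annotated exon (RPKM on GENCODE M21 union exons, so the order depends on that annotation). In the controls the order was Etv1 (26.5 ± 0.933 RPKM, SD), Etv5 (22.1 ± 4.11), Ets2 (13.8 ± 1.43), Elk1 (13.6 ± 2.45), Etv4 (5.32 ± 0.575), Etv3 (4.60 ± 0.298), Etv6 (3.61 ± 0.134), Erf (3.20 ± 0.357), Elk3 (1.54 ± 0.0592) and Ets1 (1.00 ± 0.0836). The control ranges of Etv1 and Etv5, of Ets2 and Elk1, and of Etv4 and Etv3 overlapped, so the order within those pairs was not resolved. In the knockouts Etv5 was first (92.4 ± 4.47 RPKM), then came Etv4 (45.8 ± 3.84) and Etv1 (31.2 ± 0.859), with no overlap between these 3 or with Elk1, the next in order (16.3 ± 0.951). Among the lower 6, only the ranges of Etv6 (3.67 ± 0.326) and Erf (3.10 ± 0.215) overlapped.

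Etv1, Etv4 and Etv5 together made up 55.4%, 54.7% and 59.7% of the summed RPKM of the 10 genes in controls 1 to 3 and 79.3%, 79.9%, 80.1% and 79.9% in knockouts 1 to 4. The means of 56.6% ± 2.72 (SD, n = 3) and 79.8% ± 0.337 (SD, n = 4) differed by 23.2 percentage points, or by 13.6 points on CPM not scaled by length. The size of this shift follows from the rises of Etv4 and Etv5 given above and is a description, with no test. The sum over the other 7 genes was 41.4 ± 3.17 RPKM in controls and 42.9 ± 2.52 RPKM in knockouts, while the sum over all 10 went from 95.3 ± 4.03 to 212 ± 11.1 RPKM.

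**Figure D3:**
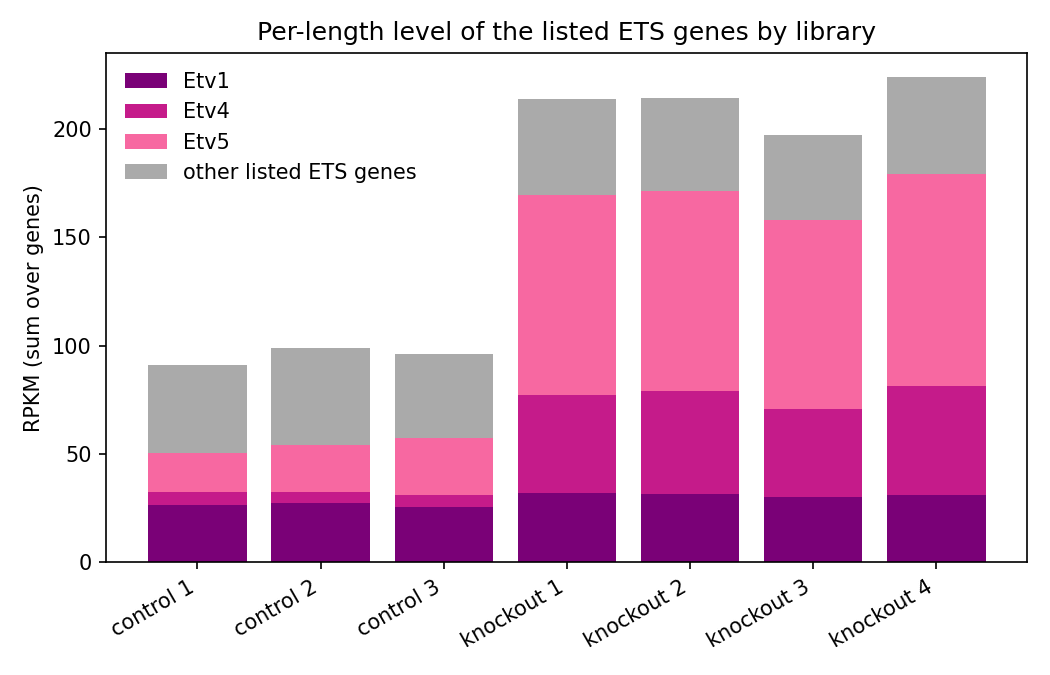
Stacked RPKM (vertical axis, from 0) of Etv1, Etv4, Etv5 and the sum of the other 7 listed ETS genes in each of the 7 libraries. The whole stack is 91.0 to 98.9 RPKM in controls and 197 to 224 RPKM in knockouts, and the grey part, the other 7 genes, is 38.7 to 45.0 RPKM in all libraries.

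The repressors Erf, Etv3 and Etv6 were near their control levels. Erf, a repressor that ERK phosphorylation moves out of the nucleus, is a neighbour of Cic on chromosome 7 (chr7:25242561-25250761, minus strand), 16.9 kb from it. It stood at 12.1, 12.5 and 10.1 CPM in the controls and at 12, 11.6, 10.9 and 10.2 CPM in the knockouts, and the groups overlapped. Its log2 fold change was -0.04 (95% interval -0.27 to 0.18, adjusted p = 0.869). Of the other genes within 100 kb of Cic, Pafah1b3, on the far side of Cic from Erf, was called higher (30 ± 1.83 against 15.1 ± 1.71 CPM, log2 fold change 0.99, SE 0.0868, adjusted p = 0.00209). Gsk3a, the next tested gene beyond Erf on its strand, had -0.04 (adjusted p = 0.746).

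Etv3, a repressor related to Erf (chr3:87525407-87540156, plus strand), was at 44.2 to 50.3 CPM in the controls and 46.0 to 50.8 CPM in the knockouts (log2 fold change 0.03, 95% interval -0.12 to 0.17, adjusted p = 0.881). Etv6, also called TEL, a repressor that forms polymers through its pointed domain (chr6:134035700-134270158, plus strand), was at 21.0 to 22.5 and 19.2 to 23.5 CPM (0.03, 95% interval -0.15 to 0.20, adjusted p = 0.904). The groups overlapped for both, and their intervals exclude a change of the size seen for Etv4 or Etv5. The sign of Etv3, Etv6 and Erf turned under some settings, and where it did the value was no further than 0.09 from 0.

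Elk3, also called NET, a repressor that becomes an activator on phosphorylation and is abundant in endothelium, was at 7.27, 6.74 and 7.06 CPM in controls 1 to 3 and at 7.78, 7.87, 8.03 and 9.21 CPM in knockouts 1 to 4. The groups did not overlap, by a narrow margin. The log2 fold change of 0.23 (95% interval 0.02 to 0.44) was not called (adjusted p = 0.276). Elk3 (chr10:93247414-93311135, minus strand) shares 316 bases, 6.95% of its exonic length, with exons of Cdk17 on the opposite strand, and reads there cannot be told apart without strand.

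Ets1, an activator of endothelial and lymphoid cells (chr9:32636221-32757820, plus strand), was at 7.88 to 9.28 CPM in the controls and at 8.20 to 11.1 CPM in the knockouts (log2 fold change 0.15, 95% interval -0.12 to 0.41, adjusted p = 0.58), and the groups overlapped. The summed level of 12 endothelial markers was 183 to 205 CPM in the controls and 197 to 242 CPM in the knockouts. For 12 of 12 the estimate was above 0 (median log2 fold change 0.20) and for 3 the unadjusted p was below 0.05, while edgeR called 0. The unadjusted p was below 0.05 for 16.2% of all tested genes, and the 12 Purkinje cell markers also all had estimates above 0 (median 0.17). With the endothelial score as a covariate Elk3 had 0.16 (adjusted p = 0.664) and Ets1 -0.03 (0.939), and Erg, an ETS factor of endothelial identity, went from 0.25 to -0.01 (0.984). The score ran partly with genotype (3.77 to 4.04 in knockouts, 3.64 to 3.84 in controls), so its part and that of genotype cannot be told apart. With it in the fit, 57 of all tested genes were called, against 352 without it. Whether endothelial RNA has a part in these values was not tested.

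Elk1, a partner of serum response factor at immediate early genes, is on chromosome X (chrX:20933395-20950608, minus strand) and shares 76 exonic bases with Uxt on the same strand, 1.41% of its exonic length. It was at 60.8, 87.0 and 72.0 CPM in controls 1 to 3 and at 89.3, 83.9, 83.6 and 94.4 CPM in knockouts 1 to 4. Control 2 lay among the knockouts, and the log2 fold change of 0.26 (95% interval 0.00 to 0.52) was not called (adjusted p = 0.304). Without control 2 it was 0.40 (adjusted p = 0.049). The share of reads in no feature was 16.0%, 18.6% and 16.5% in controls 1 to 3 and 18.2% to 19.0% in the knockouts. With that share as a covariate the value was 0.01 (adjusted p = 0.991). The share runs largely with genotype, so its part and that of genotype cannot be told apart.

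Ets2, an activator close to Ets1 (chr16:95702075-95721051, plus strand), had 85.7, 83.1 and 70.3 CPM in controls 1 to 3 and 73.9, 74.8, 59.1 and 74.3 CPM in knockouts 1 to 4. The lowest library of each group was the one numbered 3, high in choroid plexus transcripts. The log2 fold change was -0.18 (95% interval -0.41 to 0.05, adjusted p = 0.435), and with the choroid plexus score in the fit it was -0.21, which brought a call (adjusted p = 0.021). Without both libraries numbered 3 it was -0.18 and not called (adjusted p = 0.106).

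**Figure D4:**
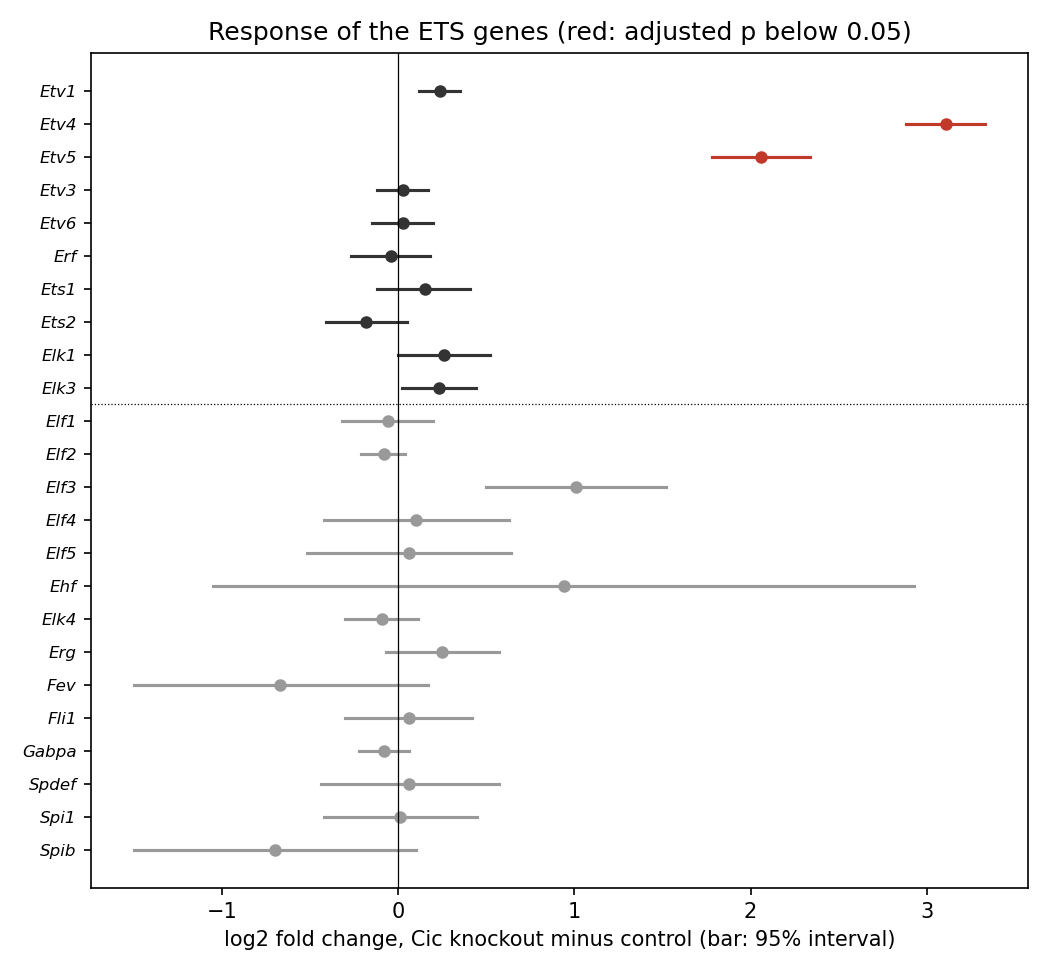
Log2 fold change of the 10 listed ETS genes (above the dotted line) and of 14 other tested ETS genes (below it), knockout minus control, with 95% intervals. Only Etv4 (3.11) and Etv5 (2.06), in red, were called, and the listed ETS genes other than these have estimates between -0.18 and 0.26.

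The rest of the family was looked at by a list of 17 other mouse ETS genes, of which 16 were in the files and 14 were tested. EdgeR called 0 of the 14 in either direction, with 1 higher and 0 lower at an unadjusted p below 0.05. That 1 was 7.14% of the list, beside 8.06% of all tested genes higher and 8.16% lower. DESeq2 called 1 higher and limma-voom 0. Their median log2 fold change was 0.04. The gene higher in DESeq2 was Elf3, an epithelial ETS factor, which was low at 0.694, 0.448 and 0.605 CPM in controls 1 to 3 and 1.30, 1.18, 0.914 and 1.32 CPM in knockouts 1 to 4 (log2 fold change 1.01, 95% interval 0.50 to 1.52, adjusted p = 0.063 in edgeR and 0.00315 in DESeq2). Elf3 also passed in edgeR without knockout 3 (adjusted p = 0.0258). It passed there too with a filter at 1 CPM in 3 libraries (0.0494) or the choroid plexus score as a covariate (0.0429). Every knockout lay above every control, as for 7.06% of all tested genes.

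Fev, the ETS factor of serotonin neurons, was near the bottom of the measured range at 0.149 to 0.335 CPM in knockouts and 0.245 to 0.551 CPM in controls (log2 fold change -0.67, adjusted p = 0.419). Spib, of B cells, had -0.70 (adjusted p = 0.371), and Elf2 -0.08 (adjusted p = 0.505). Etv2, an endothelial specifier, had at most 3 counts in every library, which is the floor used here (0.0245 to 0.0295 CPM).

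Genes that act on ETS proteins were taken next. Of 24 listed kinases, cofactors and degradation factors, 23 were measured and edgeR called 0, with 3 higher and 0 lower at an unadjusted p below 0.05. Those 3 were 13% of the list, beside 8.06% of all tested genes higher and 8.16% lower at that unadjusted p. DESeq2 called 3 higher and 0 lower, limma-voom 0 in either direction, and the median log2 fold change was 0.01. Without control 2, 2 were called higher, L3mbtl1 and the GABP subunit gene Gabpb2 (log2 fold change 0.28, adjusted p = 0.0401). L3mbtl1, a corepressor that binds ETV6, had 0.49 (SE 0.119, adjusted p = 0.0864, or 0.0371 without control 2). Rps6ka3, a kinase downstream of ERK, had 0.14 (adjusted p = 0.0929), and Hdac3, a deacetylase recruited by ETV6, 0.15 (adjusted p = 0.151). ERK1 itself (Mapk3) had -0.10 (adjusted p = 0.375). Rfwd2, the symbol in the files for the ligase COP1 that marks PEA3 group proteins for degradation, had -0.06 (adjusted p = 0.619).

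The FGF pathway, which drives Etv4 and Etv5 in the embryo, gave a single call. Of 26 listed ligands, receptors and adaptors, 24 were tested, 0 were called higher and 1 lower in edgeR. Over all tested genes 2.08% were called. At an unadjusted p below 0.05 there were 1 higher and 2 lower, 12.5% of the list beside 16.2% of all tested genes. DESeq2 called 1 higher and 1 lower, and limma-voom 0 higher and 1 lower. The called gene was Fgfrl1, a receptor without a kinase domain, at 17.9 ± 0.404 CPM in controls and 13.2 ± 1.02 CPM in knockouts (log2 fold change -0.44, SE 0.0743, adjusted p = 0.0267). That call ended without control 1 (adjusted p = 0.123), control 3 (0.0979), knockout 2 (0.0822) or knockout 4 (0.0838). It also ended without both libraries numbered 3 (0.0641) and with the share of reads in no feature (0.269) or the endothelial score (0.144) as a covariate. Fgfr1 had 0.16 (adjusted p = 0.146, or 0.0232 in DESeq2), and the ligand Fgf8 had at most 3 counts in any library.

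A list of 18 CIC targets contains the PEA3 group genes. It was drawn up with results of these libraries known, so it is not independent evidence. In edgeR 9 were called higher and 0 lower, with 13 higher and 1 lower at an unadjusted p below 0.05. Over all tested genes 1.25% were called higher and 0.828% lower. At an unadjusted p below 0.05, 8.06% of all tested genes were higher and 8.16% lower. DESeq2 called 13 higher and 1 lower, and limma-voom 9 higher and 0 lower. Over all genes DESeq2 called 1170 in either direction, against 352 in edgeR. Over the list the log2 fold change had a median of 0.95. Beside Etv4 and Etv5 the smallest adjusted p-values were those of the adaptor Shc3 (log2 fold change 1.96), the ERK inhibitor Spred3 (1.03), the small MAF factor Maff (2.15), the receptor kinase inhibitor Spry4 (1.31) and the ERK phosphatase Dusp6 (1.05). Etv4 had the largest log2 fold change of these targets, and Etv5 was below Maff.

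Among the 13987 tested genes whose mean reached 1 CPM, the profiles most like that of a PEA3 group gene over the 7 libraries were ranked by Pearson's r of log2 CPM, as a description in which the split between knockout and control dominates. For Etv4 they were Dnah8 (r = 0.997), Cd164l2 (0.9944), Shc4 (0.9929), Sipa1l2 (0.9915) and Arhgap24 (0.9896). For Etv5 they were Dusp6 (0.9964), Arhgap24 (0.9915), Add3 (0.9888), Sema6a (0.9879) and Pafah1b3 (0.9875). For Etv1 they were Samhd1 (0.9964), Dusp4 (0.9911), Actl10 (0.9909), Dusp15 (0.9882) and Zfyve27 (0.9867). Their log2 fold changes in the knockout ran from 0.13 for Zfyve27, which was not called (adjusted p = 0.151), to 2.58 for Actl10.

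Markers of other cell types give the setting of these values. EdgeR called 0 of 12 granule, 12 Purkinje, 8 unipolar brush cell, 12 microglia, 12 endothelial, 8 mural, 8 meningeal and 12 choroid plexus markers. Unadjusted p-values below 0.05 were found for 1 granule marker, which is Etv1 itself, and for 1 Purkinje, 1 unipolar brush cell and 1 mural marker, each higher, for the endothelial markers given above, and for 0 in the other 3 lists. Called lower were 1 of 10 oligodendrocyte precursor markers (Olig1) and 1 of 10 oligodendrocyte markers (Cldn11). At an unadjusted p below 0.05, 3 precursor markers were lower and 0 higher, and 5 oligodendrocyte markers were lower and 0 higher. These were 30% and 50% of the lists. Over all tested genes 8.06% were higher and 8.16% lower at that unadjusted p, and 1.25% were called higher and 0.828% lower. All 10 oligodendrocyte markers had log2 fold changes below 0 (median -0.33), and the summed levels overlapped (3860 to 6090 CPM in knockouts, 5160 to 6500 CPM in controls). Called higher was 1 of 6 tested serotonergic markers (Tph2). Their part in the levels of the ETS genes was not tested.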

How the data were processed

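RNA-seq of cerebellum was available for 7 libraries, 4 CicKO and 3 Wildtype, grouped by their titles. The authors deposited raw read counts per gene symbol. STAR 2.5.3a, HTSeq, DESeq2 and build mm10 are named per the submitters' processing notes. The annotation used for counting is not given in the sources used here, nor is the strand setting, and strand was treated as unknown. Per the labels' protocols, cDNA was primed from poly(A) and at random, then amplified. No molecular identifiers are named, so floors of 3 counts cover counting error only. The 5 HTSeq summary rows stayed out of library sizes and tests, with 16.0% to 19.0% of entries in no feature. The labels do not state that libraries are separate animals, and p-values measure the spread between these libraries. Between replicates of a group the variance was 18.5 to 157 times that of sampling alone, so none was merged with another.

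Counts were filtered with filterByExpr, scaled by TMM and tested in edgeR 4.0.16 (R 4.3.3) with the robust quasi-likelihood test and genotype as the only term. The SE was taken from the F statistic as the log2 fold change over its root. Log2 CPM used a prior count of 2. Alternatives included DESeq2 1.42.0, limma-voom 3.58.1, other scalings and filters, covariates and omitted libraries. On simulated counts with 100 genes changed by 1 and 100 by 0.3 on the log2 scale, edgeR called 87 and 9.

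Where the labels give both groups a number, the residuals of the 2 libraries correlated at 0.145, 0.288 and 0.713 over 16905 genes (numbers 1, 2 and 3), all above the limit of 0.1 taken to mean pairing. Other pairings reached 0.319, so the block is an alternative. Positions are from GENCODE M21 (GRCm38, the assembly named mm10), and promoters from RefSeq (GRCm38.p6). Members, lists and alternatives were chosen with earlier results of these data known. Named were all members and Cic, up to 5 genes per context list by adjusted p, neighbours of Cic, and the 5 profiles most like each PEA3 group gene. Rfwd2, Etv2, Fgf8 and Gabpb2 fall outside this rule and were picked with their values known. The result of 1 listed regulator under left-out libraries is not reported here.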

Additional observations from a re-analysis of the deposited data

Results flagged for a closer look

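Ets2 in the knockout group had 1 library far from the rest. Knockout 3 was at 59.1 CPM and the other knockouts at 73.9, 74.8 and 74.3 CPM, so the gap to the nearest took 0.945 of the group's range, above Dixon's critical ratio for 4 samples. Of 14 values looked at in this way, 1 was singled out, and about 5% are by chance. Knockout 3 is also the library with 12200 CPM of choroid plexus markers, and control 3, with 8400 CPM, had the lowest Ets2 of its group at 70.3 CPM.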

How the results depend on the processing

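The calls of Etv4 and Etv5 held in all 19 settings. The number of called genes, 352 of all tested, was 1170 in DESeq2, 689 with the choroid plexus score, 58 with the share of reads in no feature and 57 with the endothelial score as a covariate, and 86 to 842 with 1 library omitted. With the replicate number as a block it was 514, the same 2 ETS genes were called, and no call of a named gene changed. The number of ETS genes called higher was 2 to 4 with 1 library omitted (4 without control 2), and 1, Ets2, was called lower with the choroid plexus score in the fit. Signs turned for Etv3 without both libraries numbered 3 (0.00), with the share of reads in no feature (-0.02), without knockout 1 (0.00) and without control 3 (-0.02), for Etv6 with the block (-0.01), the endothelial score (-0.09) and without knockout 4 (-0.01), for Erf with the block (0.00) and without control 2 (0.01), for Ets1 (-0.03) and Erg (-0.01) with the endothelial score, and for Ncor1, another listed regulator, with the share of reads in no feature (-0.02). With 1 library omitted, Etv3 ran from -0.02 to 0.07, Etv6 from -0.01 to 0.09 and Erf from -0.13 to 0.01. The cause was not tested. With 1 library omitted, the difference of log2 Etv4/Etv5 was 0.88 to 1.24, of Etv4/Etv1 2.77 to 2.96 and of Etv5/Etv1 1.72 to 2.00, and the PEA3 group share differed by 22.2 to 24.8 percentage points. For the ratios the exact permutation p is then 0.0667 or 0.1, the smallest these splits allow. Within same-numbered pairs, a replicate block chosen after the data had been seen, the mean differences were 1.02, 2.83 and 1.81 for the ratios and 23.15 points for the share, with an exact sign-flip p of 0.25 for the ratios, the smallest possible. On CPM not scaled by length the share differed by 13.6 points. For Elk3, with 721 counts in its smallest library, counting error is not negligible. In simulated data 9 of 100 genes changed by 0.3 on the log2 scale were called, so most changes of that size were missed there. This share need not hold for a given gene of these libraries, because a call depends on the gene's spread and on how many genes change. In the main fit Add3 (log2 fold change 0.31, SE 0.0492) was called, and Elk1 (0.26, SE 0.112) was not. The Add3 call ended with the share of reads in no feature (adjusted p = 0.21) or the endothelial score (0.141) as a covariate. It also ended without knockout 1 (0.0767), knockout 2 (0.0714), knockout 4 (0.0805) or control 1 (0.0901). For Samhd1 the call ended with the same covariates (0.285 and 0.229). It also ended without knockout 1, 2 or 4 or control 1 or 3 (0.0694 to 0.114).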
